A study of Homo sapiens with 6 samples.

Results

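The laminin-332, hemidesmosome and kindlin-1 genes were followed in SW480, a human cell line from a colon adenocarcinoma, by mRNA sequencing of 6 libraries. The 9 genes are LAMA3, LAMB3, ITGA6, ITGB4, COL17A1, PLEC, DST, CD151 and FERMT1, chosen by name, and each matched 1 of the 20289 rows of the deposited table. MUCP1-FLAG cells, labelled as overexpressing the microprotein MUCP1 with a FLAG tag, gave 3 libraries. LV-NC cells, the control labelled as wild type, gave the other 3. The medium of both was L-15 with serum and antibiotics, and the labels name no day, passage, clone or batch. The libraries are called biological replicates, so p-values weigh group differences against the spread between these libraries. The labels do not say how separate the cultures were. No row of the table carries the symbol MUCP1, and its level was not analysed here.

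Laminin-332 is a basement membrane protein that epithelial cells lay down beneath themselves, and LAMA3 and LAMB3 encode its alpha and beta chains. The integrin made of ITGA6 and ITGB4 holds it at the cell surface, together with the tetraspanin CD151. In hemidesmosomes the cytoplasmic tail of ITGB4 is tied to keratin filaments by the plakins plectin (PLEC) and BP230, one product of DST, next to the transmembrane collagen XVII (COL17A1). Kindlin-1, encoded by FERMT1, binds the tails of integrin beta chains and helps to switch integrins on. Simple epithelia such as that of the colon are known for hemidesmosomes that lack collagen XVII and BP230. Inherited loss of laminin-332, ITGA6, ITGB4, COL17A1 or PLEC causes forms of skin blistering, and loss of FERMT1 causes Kindler syndrome.

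Library totals were 17333329 to 23282604 counts in MUCP1-FLAG and 18867369 to 21534908 in LV-NC. The cells carried epithelial transcripts: 7 epithelial markers summed to 6860 to 7040 CPM (TMM-scaled counts relative to library size) in MUCP1-FLAG and 6380 to 7050 CPM in LV-NC. KRT8 and KRT18 made up most of these sums and KRT20 was close to 0. Among these markers CDH1 was at 14.9 CPM in MUCP1-FLAG and 31.2 CPM in LV-NC and fell (log2 fold change −1.06, edgeR adjusted p 3.26e-09). EPCAM (−0.33, 3.51e-05) and VIL1 (−0.40, 0.00731) fell too, and KRT19 rose (0.17, 0.0322). KRT8 (0.03, 0.735) and KRT18 (0.12, 0.0644) missed the threshold. The part of these shifts in the results below was not tested. The fibroblast markers COL1A2, COL3A1 and DCN, the endothelial markers PECAM1, CDH5 and KDR and the leukocyte marker PTPRC had 0 counts in every library. The full fibroblast list of 7 genes summed to 0.696 to 1.08 CPM in MUCP1-FLAG and 1.10 to 1.25 CPM in LV-NC. The 6 blood markers summed to 0.812 to 1.44 CPM in MUCP1-FLAG and 0.890 to 1.16 CPM in LV-NC. The 4 endothelial markers summed to 2.26 to 4.17 CPM in MUCP1-FLAG and 2.41 to 3.30 CPM in LV-NC. Of 4 basal keratinocyte markers KRT5 reached 887 ± 19.1 CPM in MUCP1-FLAG and 479 ± 14.1 CPM in LV-NC (SD, n = 3 each) and rose (edgeR adjusted p 1.06e-11). KRT15 fell, at 4.82 ± 0.412 CPM in MUCP1-FLAG and 7.04 ± 0.340 CPM in LV-NC (edgeR adjusted p 0.00846), and KRT14 and TP63 were near 0. These are bulk libraries, in which fewer cells that carry a transcript and less of it per cell cannot be told apart.

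The promoter sequences of the laminin chains are shown because LAMA3 and LAMB3 fell together, by unequal amounts. Windows of 250 bases before RefSeq transcript starts (GRCh38.p14) were given for 5 of the 9 genes: LAMA3, LAMB3, ITGA6, COL17A1 and DST. Each was searched on both strands for the AP-1 motif TGACTCA, which reads TGAGTCA on the other strand, and matches stand in capitals. LAMA3 is transcribed from separate starts into a long form and a short form. The first window, chr18:23872770-23873019 on the plus strand, lies at the start of the short form. LAMB3 has alternative starts too. The second window, chr1:209651375-209651624 on the minus strand, precedes its downstream start, and the third, chr1:209652426-209652675 on the minus strand, precedes the upstream start.
LAMA3 short form: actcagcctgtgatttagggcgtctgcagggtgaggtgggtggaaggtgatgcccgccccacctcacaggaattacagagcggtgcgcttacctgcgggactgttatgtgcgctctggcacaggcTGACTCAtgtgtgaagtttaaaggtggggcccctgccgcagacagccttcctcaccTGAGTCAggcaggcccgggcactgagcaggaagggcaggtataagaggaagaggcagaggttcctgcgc
LAMB3 downstream start: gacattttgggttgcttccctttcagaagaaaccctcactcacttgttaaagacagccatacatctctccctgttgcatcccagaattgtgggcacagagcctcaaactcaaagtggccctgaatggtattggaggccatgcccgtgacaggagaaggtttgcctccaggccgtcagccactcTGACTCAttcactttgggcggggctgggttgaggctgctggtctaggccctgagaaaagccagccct
LAMB3 upstream start: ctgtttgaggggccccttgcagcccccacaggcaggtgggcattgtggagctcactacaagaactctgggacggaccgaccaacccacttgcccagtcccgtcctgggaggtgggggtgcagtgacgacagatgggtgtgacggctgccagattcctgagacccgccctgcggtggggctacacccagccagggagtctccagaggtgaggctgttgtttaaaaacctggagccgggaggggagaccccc
The LAMA3 window held 2 matches, whose first bases lie 125 and 69 bases before the start. Among all 35116 RefSeq windows, searched over the same 250 bases before the start, 4.20% held a match and 0.182% held 2 or more. The LAMB3 downstream window held 1 match, 67 bases before the start, and the upstream window held none. No match was present in the one remaining LAMB3 window or in those of ITGA6, COL17A1 and DST. GENCODE 29 places the start of the short transcript LAMA3-201 at base 23872840, inside the printed window and upstream of both matches. The AP-1 motif was picked for display after the sequences were seen; the GC box GGGCGG and the TEAD motif GGAATG were searched as well and are present in 42.6% and 11.9% of all windows. The GC box had 1 match in the LAMA3 window and 1 in each LAMB3 window, 3 in the downstream of the ITGA6 windows and 4 in 1 DST window, which also held the 1 TEAD match. Of all windows 24.3% held 2 or more GC box matches. A match says only that these letters are there, and the counts per gene do not say which start was used.

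Among the tested genes of the group LAMA3 showed the largest change and FERMT1 the next. Of the 9 genes 8 passed the filter on low counts, and 7 of these 8 were lower and 1, CD151, was higher in MUCP1-FLAG (edgeR quasi-likelihood test, adjusted p under 0.05). Over all 12920 tested genes 7.71% were called lower and 8.35% higher, 16.1% in either direction. COL17A1 was too low to be tested. No CPM value of MUCP1-FLAG fell within the LV-NC range, or the reverse, for any of the 8 tested genes, which held for 33.1% of all tested genes. Separated groups with MUCP1-FLAG lower were found for 7 of the 8, against 16.4% of all tested genes. The median log2 fold change of the 8 was −0.375, and that of all tested genes was −0.00419. The genes were chosen with earlier results of these data known, so these counts describe the list and say nothing particular to it. In the authors' deposited table the same 8 genes had adjusted p-values of 8.08e-71 for LAMA3 to 0.0116 for ITGA6.

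**Figure D1:**
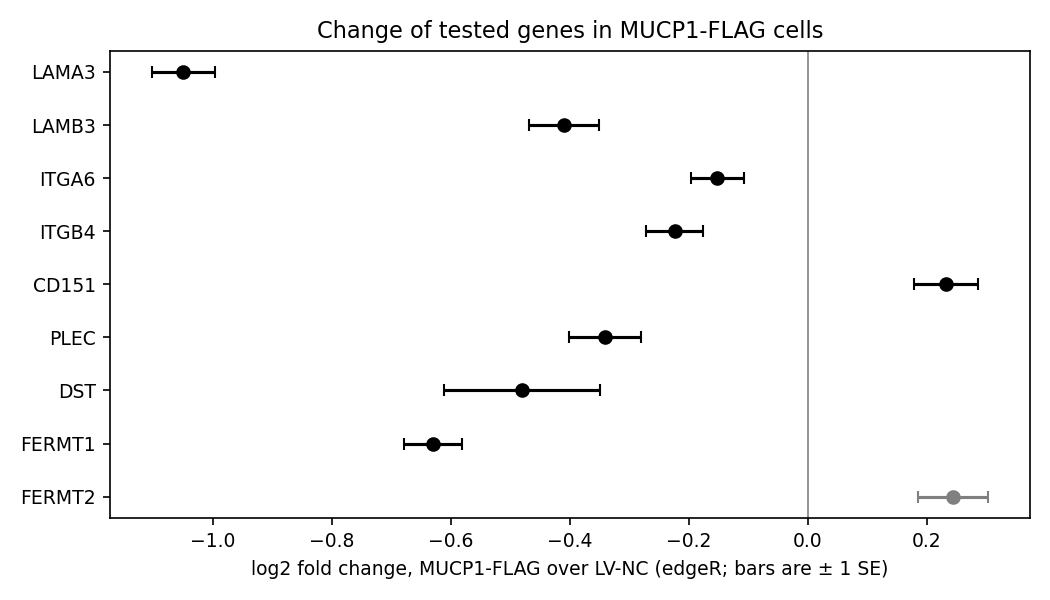
Log2 fold change, MUCP1-FLAG over LV-NC, of the 8 tested genes (black) and of FERMT2 (grey), n = 3 libraries a group. Bars are ± 1 SE, derived from the edgeR F statistic. LAMA3 lies at −1.05 and FERMT1 at −0.63, and CD151 and FERMT2 lie to the right of 0.

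LAMA3 (ENSG00000053747, chromosome 18, 23689443 to 23956222, plus strand, GRCh38), the alpha chain gene, had 141, 122 and 126 CPM in the MUCP1-FLAG libraries and 264, 275 and 265 CPM in the LV-NC libraries. Every MUCP1-FLAG value was less than every LV-NC value, with a wide gap between the groups. Its mean was 130 ± 9.73 CPM in MUCP1-FLAG and 268 ± 5.97 CPM in LV-NC (SD, n = 3 each). The log2 fold change was −1.05 ± 0.05 (SE), a 2.07-fold fall, with an edgeR adjusted p of 1.49e-11. Only 0.766% of the tested genes had an equal or more negative log2 fold change, and LAMA3 ranked 5 of 12920 by p. When each library was left out in turn the log2 fold change ran from −1.11 to −1.005.

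LAMB3 (ENSG00000196878, chromosome 1, 209614870 to 209652466, minus strand), the beta chain gene, had 90.5, 85.7 and 89.6 CPM in MUCP1-FLAG and 124, 122 and 107 CPM in LV-NC. The groups did not overlap, and the lowest LV-NC library, replicate 3, stood nearest to them. LAMB3 fell by 24.7%, with a log2 fold change of −0.41 ± 0.06 and an edgeR adjusted p of 4.69e-05. It kept the call when any single library was left out, at −0.47 to −0.37.

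Levels of different genes are set side by side in FPKM, the authors' fragment values scaled by transcript length and library depth. LAMA3 stood at 22.7 ± 2.07 FPKM in MUCP1-FLAG and 48.2 ± 1.29 FPKM in LV-NC. LAMB3 stood at 22.6 ± 0.864 FPKM in MUCP1-FLAG and 30.7 ± 2.23 FPKM in LV-NC (SD, n = 3 each). The values of both chains overlapped in MUCP1-FLAG, whereas every LAMA3 value was above every LAMB3 value in LV-NC. The FPKM ratio of LAMB3 over LAMA3 was 0.935, 1.03 and 1.05 in MUCP1-FLAG and 0.634, 0.670 and 0.604 in LV-NC. The difference in its log2 value, MUCP1-FLAG minus LV-NC, was 0.66, and the exact 2-sided permutation p was 0.1, the smallest that 3 against 3 libraries can give. Over the 5 gene pairs compared in this way no p could pass 0.05, before or after adjustment.

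The length implied by the count and the FPKM of LAMA3 was 5601, 5709 and 5786 bases in MUCP1-FLAG and 5385, 5654 and 5737 bases in LV-NC. These overlapping values lie near the 5671 bases of the short transcript LAMA3-201 and far from the 10661 and 9834 bases of the long transcripts LAMA3-202 and LAMA3-203 in GENCODE 29. The sources used here do not say how the authors set this length.

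**Figure D2:**
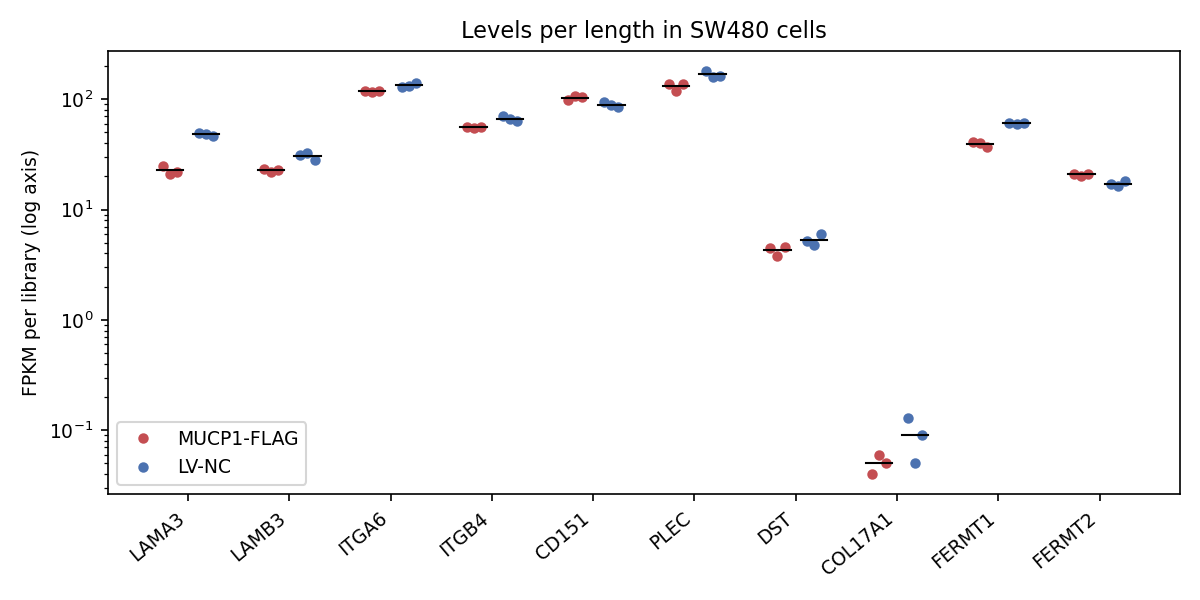
FPKM per library on a log axis for the 9 genes and for FERMT2, with MUCP1-FLAG in red, LV-NC in blue and a line at each mean of 3 libraries. PLEC and ITGA6 are the highest in LV-NC at 168 and 133 FPKM, and COL17A1 lies below 0.2 FPKM in every library.

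The integrin chains fell by smaller amounts than LAMA3. ITGB4 (ENSG00000132470, chromosome 17, 75721328 to 75757818, plus strand), whose long tail anchors hemidesmosomes, had 310, 307 and 310 CPM in MUCP1-FLAG and 384, 359 and 340 CPM in LV-NC. All MUCP1-FLAG values were below all LV-NC values, and the MUCP1-FLAG libraries differed little among themselves. ITGB4 fell by 14.4%, with a log2 fold change of −0.22 ± 0.05 and an edgeR adjusted p of 0.00236.

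ITGA6 (ENSG00000091409, chromosome 2, 172427354 to 172506282, plus strand), the laminin-binding alpha chain, had 683, 670 and 673 CPM in MUCP1-FLAG and 719, 743 and 788 CPM in LV-NC. It fell by 9.96%, with a log2 fold change of −0.15 ± 0.04 and an edgeR adjusted p of 0.0233. The groups did not overlap. The ITGA6 call was lost when replicate 2 of LV-NC was left out (edgeR adjusted p 0.0809), and likewise for replicate 1 (0.0555), 2 (0.0877) or 3 (0.107) of MUCP1-FLAG. In FPKM, ITGA6 stood at 118 ± 2.19 in MUCP1-FLAG and 133 ± 5.53 in LV-NC, and ITGB4 at 55.6 ± 0.451 in MUCP1-FLAG and 66.2 ± 3.42 in LV-NC (SD, n = 3 each). Exons of 3 antisense genes on the opposite strand overlap those of ITGA6 over 174, 125 and 52 bases. These genes have no row of their own among the deposited counts, and their part in the ITGA6 result was not tested.

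The FPKM of ITGB4 was 0.467, 0.476 and 0.468 of that of ITGA6 in MUCP1-FLAG and 0.544, 0.498 and 0.452 in LV-NC. The groups overlapped (difference in log2 ratio −0.08, exact permutation p 0.4, n = 3 each). The difference was −0.0122 without LV-NC replicate 1 and −0.145 without LV-NC replicate 3. ITGA6 can also pair with ITGB1, and laminin-332 is also bound by the integrin of ITGA3 and ITGB1. Both partners, picked after their values were seen, missed the threshold. ITGA3 changed by −0.02 ± 0.04 in log2 (edgeR adjusted p 0.837) and ITGB1 by 0.08 ± 0.05 (0.282). The sign of the ITGA3 value turned without LV-NC replicate 1, to 0.00896.

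CD151 (ENSG00000177697, chromosome 11, 832843 to 839831, plus strand), the tetraspanin that associates with laminin-binding integrins, moved the other way. It had 150, 162 and 159 CPM in MUCP1-FLAG and 142, 134 and 125 CPM in LV-NC. The groups did not overlap, and the lowest MUCP1-FLAG library, replicate 1, was close to the highest LV-NC one. CD151 rose by 17.5%, with a log2 fold change of 0.23 ± 0.05 and an edgeR adjusted p of 0.00466. Exons of POLR2L, on the opposite strand, overlap those of CD151 over 257 bases, and no source says whether reads were assigned by strand. POLR2L was at 37.96 CPM in MUCP1-FLAG and 29.57 CPM in LV-NC and rose (log2 fold change 0.36 ± 0.08, edgeR adjusted p 0.00211), and its part in the CD151 result was not tested.

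Of the plaque genes, plectin was abundant and fell. PLEC (ENSG00000178209, chromosome 8, 143915147 to 143976734, minus strand), the linker of ITGB4 to intermediate filaments, had 1895, 1621 and 1820 CPM in MUCP1-FLAG and 2450, 2164 and 2145 CPM in LV-NC. The groups did not overlap, with replicate 2 of MUCP1-FLAG the lowest of the 6 libraries. PLEC fell by 21.1%, with a log2 fold change of −0.34 ± 0.06 and an edgeR adjusted p of 0.000907. It was the highest of the 9 genes in LV-NC per length, at 168 ± 11.0 FPKM, and stood at 132 ± 11.0 FPKM in MUCP1-FLAG (SD, n = 3 each). In MUCP1-FLAG the PLEC and ITGA6 values overlapped.

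DST (ENSG00000151914, chromosome 6, 56457987 to 56954628, minus strand), which encodes the epithelial plaque protein BP230 and longer cytoskeletal linkers, had 49.3, 41.8 and 49.6 CPM in MUCP1-FLAG. In LV-NC it had 59.8, 57.4 and 79.0 CPM, with replicate 3 well above the other two. DST fell by 28.3%, with a log2 fold change of −0.48 ± 0.13, and its edgeR adjusted p of 0.0462 was close to the threshold. The DST call was lost when replicate 1 of LV-NC was left out (edgeR adjusted p 0.132), and likewise for replicate 1 (0.1), 2 (0.0714) or 3 (0.0727) of MUCP1-FLAG. Per length DST was at 4.30 ± 0.422 FPKM in MUCP1-FLAG and 5.29 ± 0.630 FPKM in LV-NC (SD, n = 3 each). It was also lost without the filter on low counts (0.125) and with limma on log2(FPKM + 1), where the log2 fold change was −0.24 (adjusted p 0.176).

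The length implied by the DST count and FPKM was 10922, 10805 and 10783 bases in MUCP1-FLAG and 11610, 12154 and 13397 bases in LV-NC. These values did not overlap, whereas the implied lengths of the other 7 tested genes overlapped between groups. In GENCODE 29 the short coding transcript DST-205 has 8999 bases and the long DST-201, DST-202 and DST-204 have 16742, 17756 and 22431 bases. The counts per gene do not separate these forms. The log2 ratio of PLEC over DST in FPKM was 4.94, 4.96 and 4.91 in MUCP1-FLAG and 5.13, 5.09 and 4.77 in LV-NC, with overlapping groups (exact permutation p 0.7, n = 3 each).

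COL17A1 (ENSG00000065618, chromosome 10, 104031286 to 104085957, minus strand), collagen XVII, was barely detected. It had 3, 4 and 6 counts in the MUCP1-FLAG libraries and 6, 3 and 9 counts in the LV-NC libraries, at 0.04 to 0.06 FPKM and 0.05 to 0.13 FPKM. The groups overlapped, the gene did not pass the filter, and a difference was not detectable at this depth. Per length its level was 0.000715 to 0.00109 of that of ITGB4 in MUCP1-FLAG and 0.000759 to 0.00186 in LV-NC.

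FERMT1 (ENSG00000101311, chromosome 20, 6074845 to 6123544, minus strand), kindlin-1, had 182, 176 and 163 CPM in MUCP1-FLAG and 271, 264 and 270 CPM in LV-NC. The groups were widely separated. Per length it was at 39.2 ± 2.13 FPKM in MUCP1-FLAG and 60.4 ± 0.435 FPKM in LV-NC (SD, n = 3 each). FERMT1 fell by 35.4%, with a log2 fold change of −0.63 ± 0.05 and an edgeR adjusted p of 7.43e-09, and kept the call when any single library was left out, at −0.67 to −0.59. Its paralogue FERMT2, kindlin-2, the widely expressed family member, had 67.3, 64.3 and 63.4 CPM in MUCP1-FLAG and 53.9, 53.2 and 57.6 CPM in LV-NC. FERMT2 rose by 18.5% (0.24 ± 0.06, edgeR adjusted p 0.00619; 0.0525 without LV-NC replicate 2).

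In FPKM, FERMT1 exceeded FERMT2 by 1.94, 1.95 and 1.76 times in MUCP1-FLAG and by 3.59, 3.70 and 3.35 times in LV-NC. The groups did not overlap. The difference in log2 ratio was −0.91, with an exact permutation p of 0.1, again the smallest the design allows. FERMT3, kindlin-3, the blood cell member, was near 0 and was not tested.

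**Figure D3:**
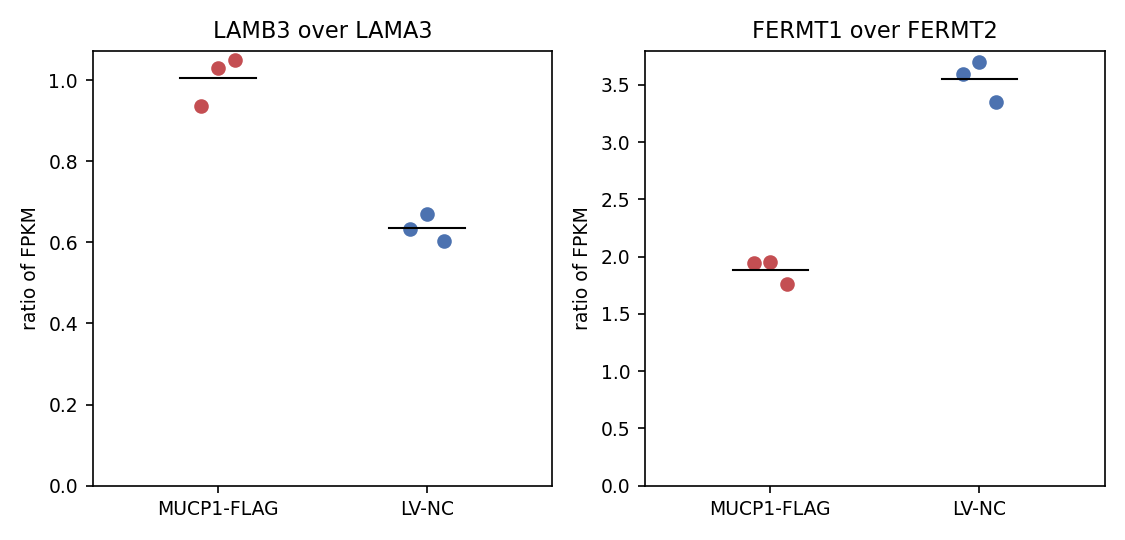
FPKM ratios of LAMB3 over LAMA3 and of FERMT1 over FERMT2 per library, MUCP1-FLAG left and LV-NC right, with a line at the mean of 3 libraries and axes from 0. The laminin ratio is near 1 in MUCP1-FLAG and at most 0.670 in LV-NC, and the kindlin ratio is at most 1.95 in MUCP1-FLAG and at least 3.35 in LV-NC.

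Other genes of integrin adhesion were read from a list of 19 talin, kindlin and adaptor genes, of which 18 were tested, 6 rose and 2 fell, against 8.35% higher and 7.71% lower over all tested genes; the median log2 fold change was 0.0126. The count of lower genes was near the share over all genes. Apart from FERMT2, the rises were ITGB1BP1, whose product ICAP-1 binds the tail of ITGB1 and restrains its activation (0.33 ± 0.06), ILK, a pseudokinase that joins kindlin to actin (0.28 ± 0.06), and LIMS1, its partner PINCH-1 (0.25 ± 0.05). The edgeR adjusted p-values of these 3 were 0.00045, 0.00219 and 0.00205. PARVA and RSU1, picked after their values were seen, belong to the same complex of ILK. They rose by 0.16 ± 0.05 and 0.22 ± 0.06 (edgeR adjusted p 0.0231 and 0.0152). PARVB, the other parvin gene of the list, had 0.15 ± 0.06 and missed the threshold (edgeR adjusted p 0.0876). ILK had 99.6, 98.1 and 95.6 CPM in MUCP1-FLAG and 87.5, 78.9 and 76.0 CPM in LV-NC, without overlap. The tensin TNS1, which links integrins to actin, fell (−0.37 ± 0.07, edgeR adjusted p 0.00106). TNS4, picked after its value was seen, also fell (−0.17 ± 0.05, 0.0127). Another tensin of the list, TNS3, named after its value was seen, had 0.17 ± 0.06 and missed the threshold (edgeR adjusted p 0.0596). Talin itself, TLN1, also picked after its value was seen, had −0.05 ± 0.05 (0.517).

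Of these adaptor calls several depended on single libraries. Without LV-NC replicate 2 only 3 genes of the list were higher, and PARVA had an edgeR adjusted p of 0.0958 and RSU1 one of 0.0545. PARVA was also lost without MUCP1-FLAG replicate 2 (0.144) or 3 (0.0871), and RSU1 without MUCP1-FLAG replicate 1 (0.0977) or 2 (0.0577). With limma on log2(FPKM + 1), PARVA (adjusted p 0.278), RSU1 (0.104) and TNS1 (0.0718) missed the threshold. The number of lower genes in the list was 1 when replicate 2 of LV-NC or replicate 2 or 3 of MUCP1-FLAG was left out, with TNS4 at an edgeR adjusted p of 0.0865, 0.0527 and 0.0727.

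Plakins and desmosome genes held the largest share of lower genes among the 5 further lists: of 12 genes 10 were tested, 6 fell and 0 rose, against 7.71% lower over all tested genes, with a median of −0.261. Desmoplakin, DSP, which ties keratins to desmosomes, had 430, 384 and 401 CPM in MUCP1-FLAG and 498, 480 and 518 CPM in LV-NC and fell (−0.30 ± 0.05, edgeR adjusted p 0.000158). Periplakin, PPL, had −0.29 ± 0.05 (0.000212), the plakophilin PKP3 −0.30 ± 0.06 (0.000802), the plakin MACF1, which links microtubules and actin, −0.23 ± 0.05 (0.00207), and plakoglobin, JUP, −0.22 ± 0.06 (0.0148). PKP1, picked after its value was seen, fell at 3.47 CPM in MUCP1-FLAG and 5.24 CPM in LV-NC (edgeR adjusted p 0.0214). The plakophilin PKP2, at 94.1 CPM in MUCP1-FLAG and 91.7 CPM in LV-NC, missed the threshold (0.04 ± 0.05, edgeR adjusted p 0.698). So did EVPL (−0.17 ± 0.07, 0.123), DSG2 (−0.13 ± 0.06, 0.159) and DSC2 (−0.66 ± 0.29, 0.133). The PKP1 call was lost when replicate 3 of LV-NC (0.0665) or replicate 1 (0.0727) or 2 (0.122) of MUCP1-FLAG was left out, and with limma on log2(FPKM + 1) (adjusted p 0.111). JUP was lost when replicate 2 of LV-NC (edgeR adjusted p 0.0663) or of MUCP1-FLAG (0.0766) was left out, and with limma on log2(FPKM + 1) (0.148).

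Among 20 further laminin and basement membrane genes 14 were tested, 1 rose and 1 fell, near the 8.35% and 7.71% of all tested genes, and the median was −0.0691 (log2). LAMA2, the alpha chain of muscle laminin, fell at a very low level of 0.131 ± 0.0381 CPM in MUCP1-FLAG and 0.580 ± 0.0998 CPM in LV-NC (SD, n = 3 each; edgeR adjusted p 0.0116). NID1, which links laminins to collagen IV, rose by 0.32 ± 0.08 (edgeR adjusted p 0.0102). LAMA2 was lost when replicate 2 of LV-NC (0.0649) or replicate 3 of MUCP1-FLAG (0.0594) was left out, and with limma (0.644 on log2(FPKM + 1)), and NID1 without MUCP1-FLAG replicate 2 (0.0633) and with limma (0.129). The 14 other laminin receptors and tetraspanins gave 12 tested genes, 1 higher and 1 lower, also near the shares over all tested genes, with a median of 0.0280. SDC4, a heparan sulfate proteoglycan of adhesion sites, fell by 0.24 ± 0.04 (edgeR adjusted p 0.000601) and the tetraspanin TSPAN4 rose by 0.35 ± 0.09 (0.0102). TSPAN4 was lost without MUCP1-FLAG replicate 2 (0.0651) and with limma (0.0905).

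Of 11 genes for enzymes that can cut laminin-332 or collagen XVII 9 were tested, 1 rose, 2 fell and 6 did not pass the test, with a median of −0.0822. The share over all tested genes was 8.35% higher and 7.71% lower. PLAU, urokinase, which activates plasmin, had 22.4, 20.2 and 18.9 CPM in MUCP1-FLAG and 48.8, 45.0 and 41.7 CPM in LV-NC, a log2 fold change of −1.14 ± 0.08 and an edgeR adjusted p of 2.43e-09. MMP14, a membrane-bound matrix metalloprotease that cleaves laminin-332, fell by 0.29 ± 0.05 (0.000219). ADAM9, a sheddase of collagen XVII, rose by 0.30 ± 0.05 (0.0006). The other ADAM genes of the list, ADAM10 and ADAM17, named after their values were seen, missed the threshold. They had −0.02 ± 0.06 (edgeR adjusted p 0.853) and 0.009 ± 0.06 (0.944).

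**Figure D4:**
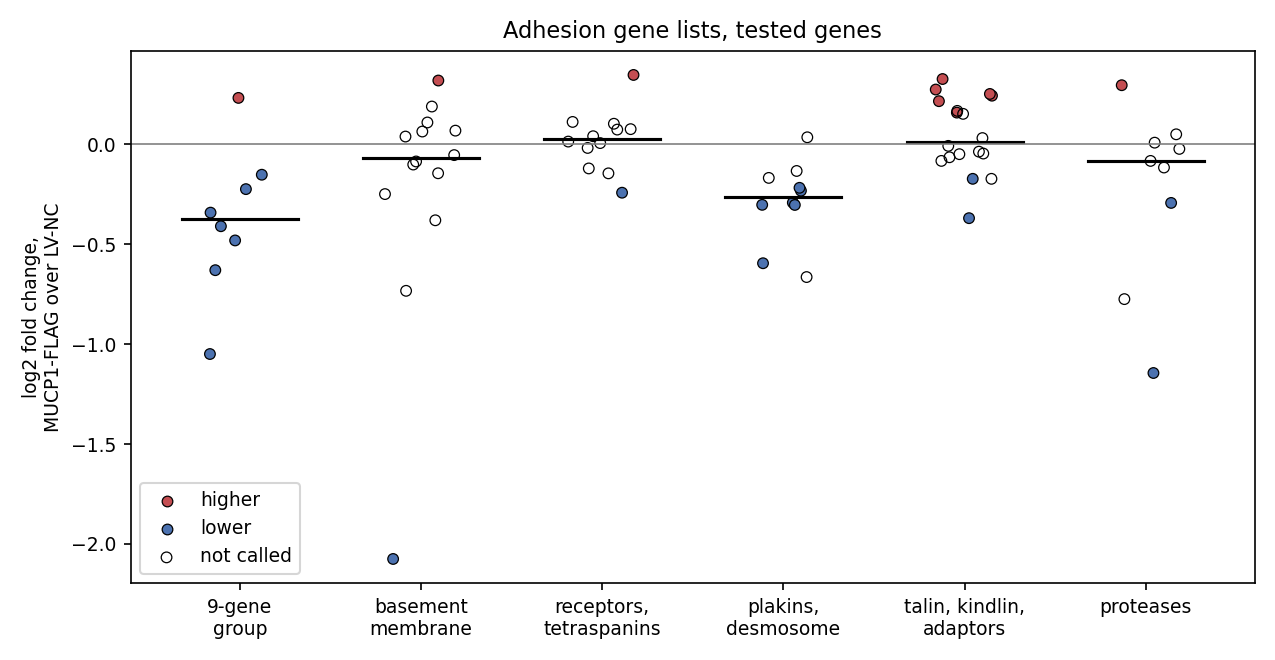
Log2 fold change, MUCP1-FLAG over LV-NC, of the tested genes of 6 lists; each point is a gene, red if called higher, blue if called lower, open if not called, and lines are medians. The 9-gene group and the plakin and desmosome list have medians of −0.375 and −0.261, and the other 4 lists have medians between −0.0822 and 0.0280.

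The genes whose profile was most like that of a called gene were sought among 9423 genes with a mean of at least 10 CPM, by Pearson's r of log2 CPM over the 6 libraries. These 6 points hold 2 separate groups, so a gene that differs between them in the same direction tends to score high. The values are a description. PHLDA1, a target of MAPK signalling, was the gene most like LAMA3 (r = 0.998), with a log2 fold change of −0.65. PADI1, a peptidylarginine deiminase, was among the 2 genes most like FERMT1 (r = 0.995), with a log2 fold change of −0.375. SREBF1 was most like LAMB3 (0.998), BTRC most like ITGA6 (0.999), ZBTB7A most like ITGB4 (0.999), GSN most like PLEC (0.994), PURB most like DST (0.995) and PDXK most like CD151 (0.998). Of the genes named here, BTRC and GSN did not themselves pass the threshold (edgeR adjusted p 0.404 and 0.078). At least 89 genes for PLEC and up to 245 for LAMA3 reached an r of 0.95.

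**Figure D5:**
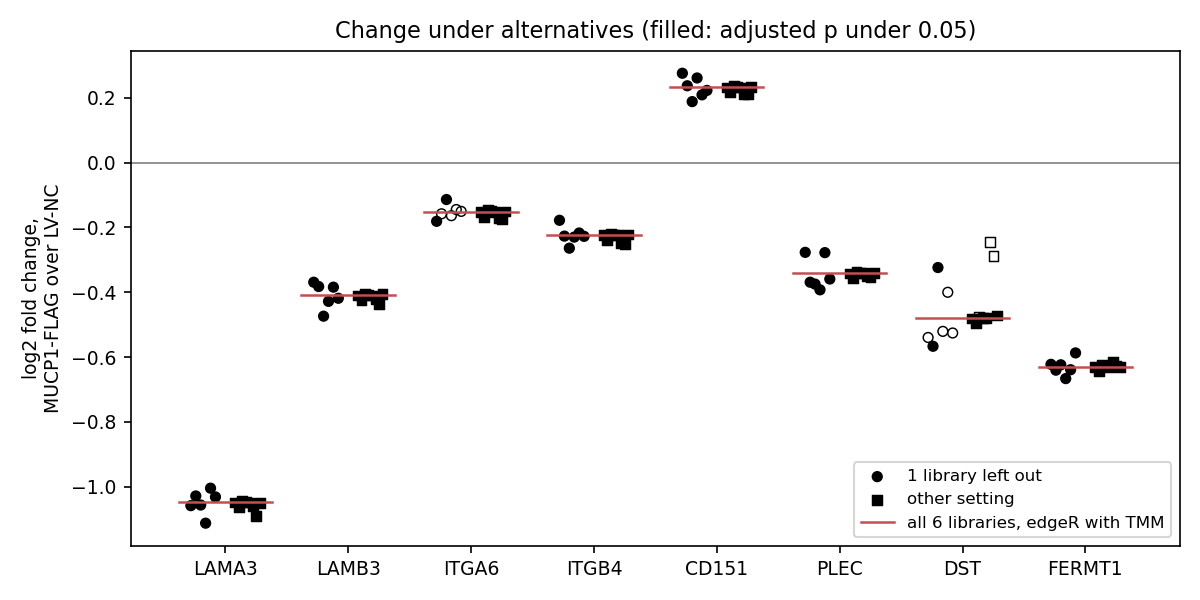
Log2 fold change, MUCP1-FLAG over LV-NC, of the 8 tested genes when 1 library is left out (circles) or another setting is used (squares); filled symbols have an adjusted p under 0.05 and red lines are the values from all 6 libraries. Open symbols occur for ITGA6 and DST only, and no value lies across 0 from its red line.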

How the data were processed

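The authors deposited 1 table with whole-number read counts and FPKM per gene and library, their mean FPKM per group, a log2 fold change and p-values, per the file headers. Tools listed in the submitters' processing notes are featureCounts, HISAT2, fastp and DESeq2, with GRCh38 as build; versions, strand setting and the test behind the deposited p-values are not given in the sources used here. The members and lists were chosen with earlier results of these data known. Counts were tested with edgeR 4.0.16 in R 4.3.3 (quasi-likelihood F test, robust, TMM, filterByExpr with a minimum count of 10), with Benjamini-Hochberg adjustment over 12920 genes and a threshold of 0.05. Log2 fold changes carry an SE, computed as their absolute value over the square root of the F statistic of this test. The fit was checked on simulated counts. Alternatives were other scalings and filters, DESeq2 1.42.0, limma 3.58.1 on log2(FPKM + 1) and log2(FPKM + 0.1), a replicate block and leaving out each library. Counts of replicate libraries differed by more than sampling noise (chi-square per degree of freedom 2.56 to 8.22). Named genes were the 9 members, up to 5 called genes of each list by adjusted p, and the 2 most similar profiles per called member, of which 1 is given. A similar profile and 1 gene of the basement membrane list, taken out after its values were seen, are not reported here. Coordinates and transcript lengths are from GENCODE 29 (GRCh38), matched by Ensembl identifier. Ratios used FPKM and an exact 2-sided permutation test.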

Additional observations from a re-analysis of the deposited data

How the results depend on the processing

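Under every alternative run, the log2 fold changes of the 8 tested members kept their sign. The ITGA6 and DST calls were the member calls that were lost, as given above; lower members numbered 6 without the filter on low counts and with limma, 5 to 7 when a library was left out, and 7 with the other settings. The cause of these losses was not tested. All tested genes gave 514 higher and 544 lower with limma on log2(FPKM + 1), 516 and 549 on log2(FPKM + 0.1), and 639 to 1323 higher and 624 to 1213 lower when a library was left out. In the basement membrane list 0 were higher with limma on either scale, 0 were lower with limma, with DESeq2 and with the stricter filter, and leaving out a library gave 0 to 2 higher and 0 to 2 lower. Of laminin receptors and tetraspanins 0 were higher with limma and 0 to 2 with a library left out. Of the adaptors 1 was lower with limma, and leaving out a library gave 3 to 8 higher and 1 to 3 lower. The PLEC over DST difference in log2 ratio, −0.06, turned to 0.13 in CPM and ran from −0.17 to 0.0103 when a library was left out; the ITGA3 log2 fold change ran from −0.0476 to 0.00896. The ITGB4 over ITGA6 difference in log2 ratio ran from −0.145 to −0.0122 when a library was left out. The replicate numbers share no stated culture or day. Deviations of same-numbered libraries correlated at 0.00239 to 0.0498, and those of differently numbered libraries at −0.0461 to 0.00759. Whether the numbers mark a pairing was not tested. With the replicate block 1005 genes were higher and 954 lower, with 7 members lower and 1 higher. The edgeR adjusted p with this block was 0.000127 for DST and 1.44e-05 for PLEC. COL17A1, at 3 to 9 counts, is limited by depth.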
